A study of Caenorhabditis elegans with 8 samples.

Results

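The genes of Dicer, the RNA-dependent RNA polymerases and the mutator proteins of Caenorhabditis elegans were examined for RNA polymerase II peaks in early embryos. The set held 9 genes, named by their sequence names in the order dcr-1 (K12H4.8), rde-4 (T20G5.11), ego-1 (F26A3.3), rrf-1 (F26A3.8), drh-3 (D2005.5), ekl-1 (F22D6.6), cde-1 (K10D2.3), mut-7 (ZK1098.8) and mut-16 (B0379.3). They were taken by name, as members of a known pathway, with earlier results of these data known, out of 8922 genes in the deposited table of calls and 19983 protein-coding genes of the gene table. All 9 are protein-coding, and 4 of them appear in the table of calls. The other 5 are absent from it and count as called in neither condition.

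Peaks were mapped by chromatin immunoprecipitation and sequencing (ChIP-seq) of AMA-1, the catalytic subunit of the polymerase. Embryos of strain KW2309, from 1 to 350 cells, had RNAi against sig-7, the gene of a nuclear cyclophilin, labelled as sig-7 loss, or had L4440, the RNAi vector without an insert, as control. There were 2 libraries of ChIP and 2 of input for each condition. Both conditions share the strain and the stage range, and embryos without any RNAi treatment were not analysed here. The alleles of KW2309 and the way RNAi was given are not stated in the labels. The labels number the inputs of a condition 1 and 2, but both of its ChIP libraries carry a 1 before the antibody name and differ in the number after it, so it is not shown that the ChIP replicates came from separate embryo samples.

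The deposited value is a single call per gene and condition. A call of 1 means that a peak overlapped the gene, by at least 250 bp or 45% of its length, in both replicates. A gene with a call of 0 had that overlap in 0 or 1 of them. The 2 replicates are merged in the call, so no value per library, no error and no test between conditions could be obtained. Every difference below is between calls, and it can come from a peak that crossed the calling threshold in 1 replicate. Peak height, position within the gene and depth are unknown. A ChIP peak has no strand, so overlapping or adjacent genes can share it, and embryos of all stages are mixed in each sample. At the targeted gene itself, F39H2.2, the call was 1 in sig-7(RNAi) and 0 in control, from which the amount of its mRNA cannot be read. Of 14 early zygotic marker genes, 7 (50.0%) were called in sig-7(RNAi) and 4 (28.6%) in control, where 23.9% of all protein-coding genes were called in sig-7(RNAi) and 22.8% in control. Of 14 vitellogenin, sperm and cuticle genes, listed here for carry-over of adult tissue though not all are limited to adults, 1 (7.14%) was called in sig-7(RNAi) and 0 in control. Both were below those shares.

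In RNA interference, Dicer cuts double-stranded RNA into short interfering RNAs, which an Argonaute protein uses to find matching transcripts. In worms, RNA-dependent RNA polymerases then copy those transcripts into many secondary small RNAs, and the mutator proteins gather this amplification in perinuclear foci of germ cells. Several of these factors are supplied by the mother to the egg, and the small RNAs that they make silence transposons and mark germline genes. Knockdown by RNAi itself relies on this machinery.

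Of the 9 genes, 3 were called in sig-7(RNAi) and 3 in control, which was 33.3% of them in either condition. Among all protein-coding genes 23.9% were called in sig-7(RNAi) and 22.8% in control. With 9 genes, the difference from these shares is that of about 1 gene. The calls were not at the same genes. rde-4 and mut-16 were called in both conditions, ekl-1 in sig-7(RNAi) only and dcr-1 in control only, so that 2, 1 and 1 genes fell in these classes. The same classes held 16.8%, 7.05% and 6.03% of all protein-coding genes. A single gene on either side is no sign of a lean to a condition. The remaining 5 genes, ego-1, rrf-1, drh-3, cde-1 and mut-7, had no call in sig-7(RNAi) and none in control.

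**Figure D1:**
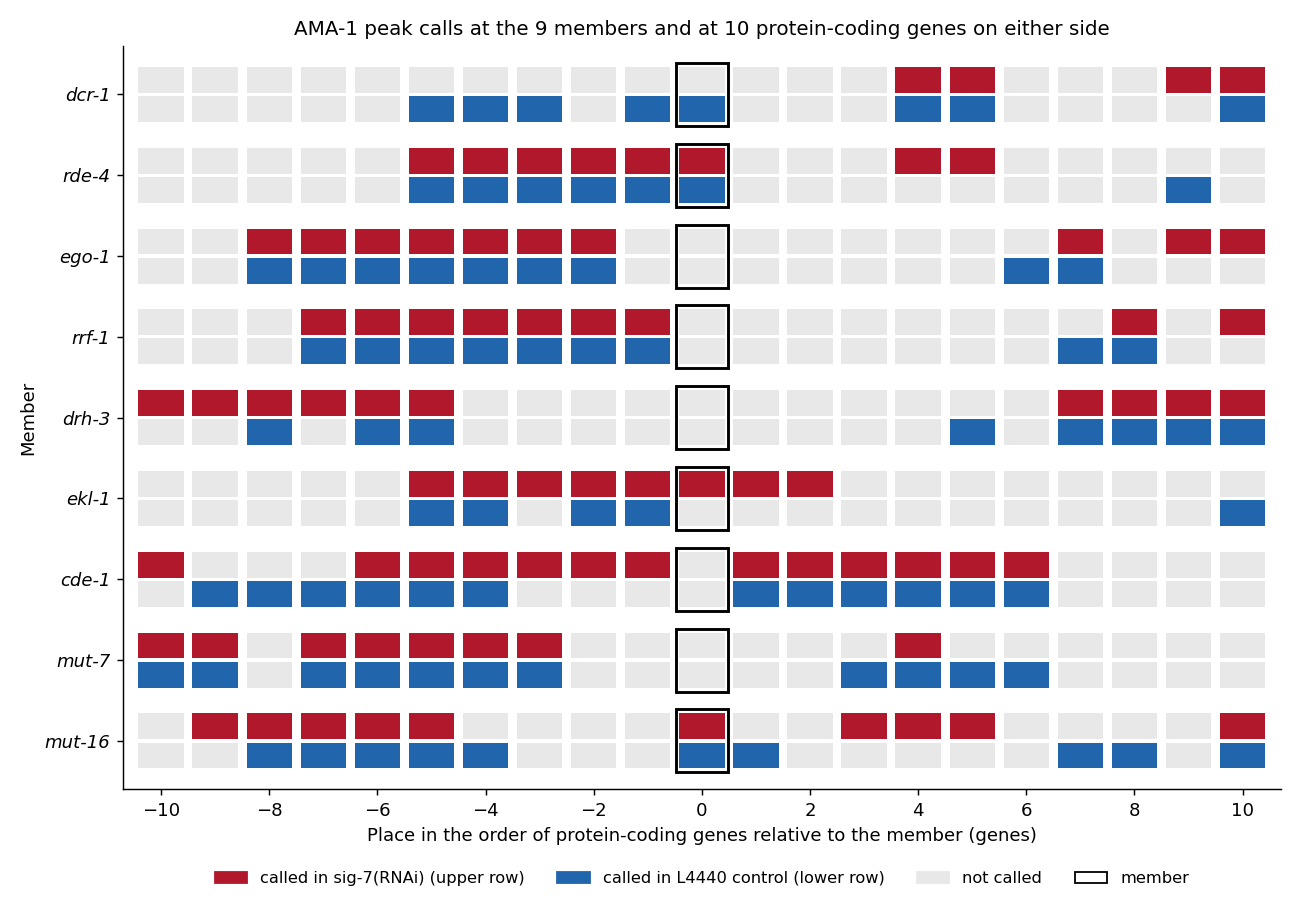
AMA-1 peak calls at the 9 genes (black frames, place 0) and at the 10 protein-coding genes on either side, in the order of the gene table; the x axis counts genes and is not a distance. For each gene the upper row shows the call in sig-7(RNAi) and the lower row the call in L4440 control, and only rde-4 and mut-16 have both rows filled inside the frame.

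The Dicer complex genes were split. dcr-1 encodes Dicer, the RNase III enzyme that makes both short interfering RNAs and microRNAs. Its call was 0 in sig-7(RNAi) and 1 in control. The adjacent gene pros-1 (K12H4.1) had the same pair of calls, and dcr-1 and pros-1 formed a run of 2 control-only genes. On the other side apc-2 (K06H7.6), which encodes a subunit of the anaphase-promoting complex, was called in neither condition. Among the 20 protein-coding genes around dcr-1, 10 on either side, 4 were called in sig-7(RNAi) and 7 in control. Of these 20 genes 4 were control-only and 1 was sig-7(RNAi)-only, classes that held 6.03% and 7.05% of all protein-coding genes. Those shares are not the scale for genes beside a control-only gene, since neighbouring genes share calls. Of the 1204 protein-coding genes in the control-only class, 46.4% stood alone with no adjacent gene of the same class, so dcr-1 was among the rest. Another 12 were called in neither condition. The control-only genes all lay on the side of pros-1. On the side of apc-2, vms-1, idi-1 and C14B9.3 were called in both conditions and plk-1 in sig-7(RNAi) only.

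rde-4 encodes the double-stranded RNA binding protein that works with Dicer on long double-stranded RNA. It had a call of 1 in sig-7(RNAi) and 1 in control. It was the last gene in a run of 6 adjacent genes called in both conditions, which begins with the clathrin heavy chain gene chc-1 and includes its direct neighbour cts-1 (T20G5.2), the citrate synthase gene. The gene on its other side, cox-14 (T20G5.14), was called in neither. In a run of this kind a single broad peak can call several genes, and the table does not show where the peaks lie.

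The 4 genes for RNA-dependent RNA polymerases and their partners had 1 call among them, that of ekl-1 in sig-7(RNAi). Among all protein-coding genes 23.9% were called in sig-7(RNAi) and 22.8% in control, and 4 genes are too few to set apart from these shares. ego-1 encodes the polymerase needed in the germline, and rrf-1 its relative best known from somatic RNAi. Both had calls of 0 in sig-7(RNAi) and 0 in control. They are adjacent in the gene order, and rrf-1 opened a run of 7 uncalled genes in which ego-1 came next. The gene before rrf-1, ncbp-2 (F26A3.2), which encodes a subunit of the nuclear cap-binding complex, was called in both conditions. The edge between called and uncalled genes thus lay between ncbp-2 and rrf-1 in sig-7(RNAi) and in control alike. The gene after ego-1, F26A3.4, was uncalled.

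drh-3 encodes a Dicer-related helicase that acts with these polymerases. It had no call in sig-7(RNAi) or in control, and it was the fifth gene in a run of 9 uncalled genes. Its neighbours D2005.7 and glna-3 (F30F8.2), a glutaminase gene, were uncalled in both conditions. Over the 20 surrounding genes 10 were called in sig-7(RNAi) and 8 in control. Around all 9 genes together, 42.5% of flanking genes were called in sig-7(RNAi) and 41.9% in control. The run lay between D2005.6, called in both conditions, and F30F8.10, called in control only. In sig-7(RNAi) the uncalled stretch went on through F30F8.10 and F30F8.5.

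ekl-1 encodes a Tudor domain protein that acts with drh-3 and the polymerases in making secondary small RNAs. It had a call of 1 in sig-7(RNAi) and 0 in control, the only such gene of the 9. It opened a run of 3 sig-7(RNAi)-only genes, followed by F22D6.8 and F22D6.9. The gene before it, prpf-4 (F22D6.5), which encodes a splicing factor kinase, was called in both conditions. The called stretch that holds prpf-4 thus reached 3 genes further in sig-7(RNAi) than in control. Of the 1409 protein-coding genes in this class, 51.1% stood alone with no adjacent gene of the same class, so ekl-1 was among the rest.

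cde-1, listed in the gene table as cid-1, encodes a nucleotidyltransferase that adds uridines to the small RNAs bound by the Argonaute CSR-1. It had a call of 0 in sig-7(RNAi) and 0 in control, and it stood alone between called genes. On one side emb-1 (K10D2.4) was called in sig-7(RNAi) only, as were the genes before it, K10D2.5 and the splicing factor gene prp-19. On the other side pup-2 (K10D2.2), which encodes a related uridylyltransferase, was called in both conditions, at the head of a stretch of called genes that includes the histone chaperone gene hira-1. Of the 20 genes around cde-1, 13 were called in sig-7(RNAi) and 12 in control, the highest count in each condition for the 9 genes. Around all 9 genes together the shares were 42.5% in sig-7(RNAi) and 41.9% in control. Among the 14010 protein-coding genes called in neither condition, 4.11% stood alone as cde-1 did.

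The mutator genes differed from each other. mut-7 encodes an exonuclease-like protein needed for transposon silencing. It had no call in sig-7(RNAi) or in control and lay in the middle of a run of 5 uncalled genes. Its neighbours ZK1098.3 and eif-2Balpha (ZK1098.4), a translation initiation factor gene, had no call either. mut-16 encodes the scaffold protein of the mutator foci. It had a call of 1 in sig-7(RNAi) and 1 in control. Its neighbour B0379.1 was uncalled, and scpl-1 (B0379.4), which encodes a small phosphatase of the kind that acts on the polymerase tail, was called in control only. In sig-7(RNAi), therefore, mut-16 had 0 called neighbours, and in control it had 1.

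Calls run together along the gene order, which sets the scale for these patterns. Of protein-coding genes with 0 called neighbours in sig-7(RNAi), 5.45% were themselves called there, against 43.4% with 1 called neighbour and 84.1% with 2. In control the shares were 6.20%, 44.3% and 73.5%. In sig-7(RNAi) 5 of the 9 genes had 0 called neighbours (dcr-1, ego-1, drh-3, mut-7 and mut-16), and only mut-16 of these was called. rde-4 and rrf-1 had 1 called neighbour each, and rde-4 was called. ekl-1 and cde-1 had called neighbours on both sides, and ekl-1 was called and cde-1 was not. An uncalled gene between 2 called neighbours made up 15.9% of such places in sig-7(RNAi), or 348 of 2184 genes. In control 3 genes had 0 called neighbours and none of them was called, and the other 6 had 1 each, of which dcr-1, rde-4 and mut-16 were called. Of the genes called in both conditions, 11.8% had, like mut-16, no called neighbour in sig-7(RNAi).

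**Figure D2:**
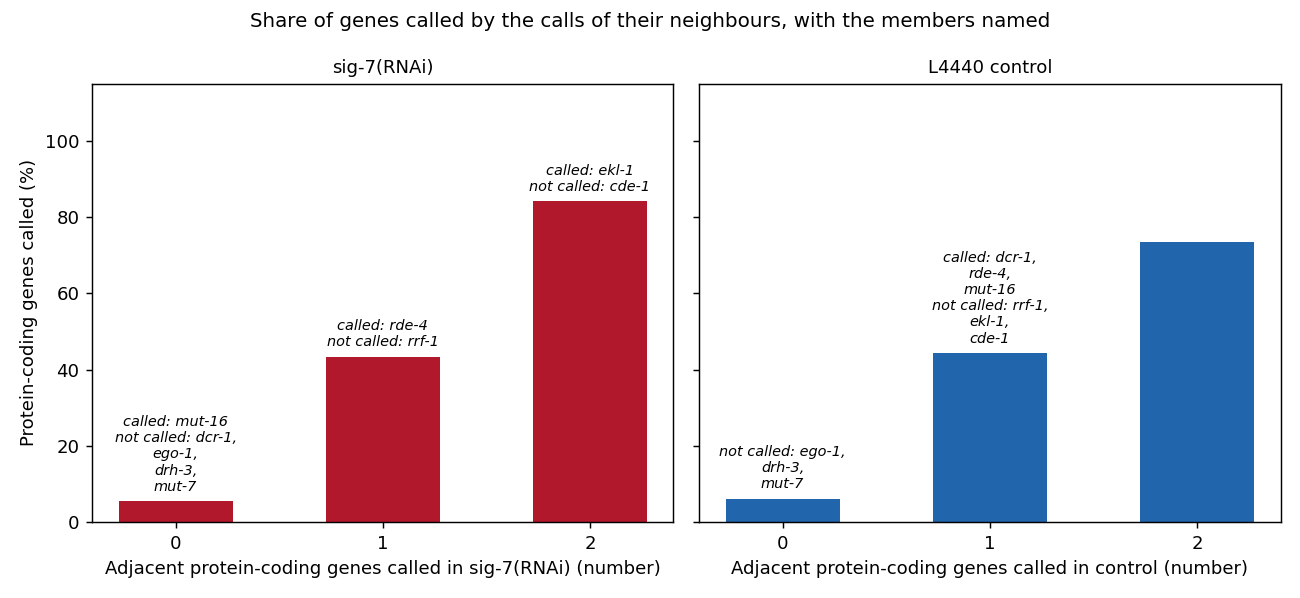
Share of protein-coding genes called (y axis, percent) by the number of directly adjacent protein-coding genes called in the same condition (x axis), in sig-7(RNAi) on the left and L4440 control on the right. The share increases with each called neighbour in both panels; the names above the bars place the 9 genes, with mut-16 called among genes with 0 called neighbours and cde-1 uncalled among genes with 2 in sig-7(RNAi).

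Paralogs of the 9 genes were read beside them. The worm has 2 further polymerase genes of the ego-1 family. Of these, rrf-3 (F10B5.7), which makes small RNAs in the ERI pathway that competes with RNAi from outside, was called in sig-7(RNAi) only, and rrf-2 (M01G12.12) in neither. The family of 4 thus had 1 call in sig-7(RNAi) and 0 in control. With 23.9% and 22.8% of all protein-coding genes called, 4 genes are too few to set apart from these shares. Among the Dicer-related helicases, drh-1 (F15B10.2), which takes part in antiviral RNAi, was called in sig-7(RNAi) only, and drh-2 (C01B10.1), like drh-3, in neither. Of the nucleotidyltransferases, pup-2 and gld-4 (ZK858.1) were called in both conditions, usip-1 (ZK863.4) in sig-7(RNAi) only, and pup-3 (F59A3.9) and gld-2 (ZC308.1) in neither. Copies with alike sequence could share reads, and how the reads were assigned to them is not given in the sources used here.

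In 9 lists of other small RNA genes, 98 genes were found in the gene table. Of these 46 (46.9%) were called in sig-7(RNAi) and 36 (36.7%) in control, where all protein-coding genes had 23.9% in sig-7(RNAi) and 22.8% in control. In both conditions 32 genes were called (32.7%), in sig-7(RNAi) only 14 (14.3%) and in control only 4 (4.08%). The class of sig-7(RNAi)-only genes was larger than that of control-only genes in 6 of the 9 lists and equal to it in 3. The margins were small. The counts were 1 against 0 for the 2 polymerase paralogs, for double-stranded RNA uptake and for piRNA biogenesis. They were 2 against 1 for nucleotidyltransferases, 2 against 0 for Dicer-related helicases and ERI factors, and 4 against 0 for Argonautes. The lists were read without a test, since neighbouring genes share calls and each condition has 1 set of calls. The classes held 7.05% and 6.03% of all protein-coding genes, and 1 gene each of the 9 members.

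Dicer-related helicases, ERI factors and other genes of double-stranded RNA processing had 6 of 14 genes (42.9%) called in both conditions. The share was 16.8% for all protein-coding genes. Among the 6 were eri-1 (T07A9.5), eri-3 (W09B6.3), eri-5 (Y38F2AR.1) and the RNA phosphatase gene pir-1 (T23G7.5). Besides drh-1, rsd-2 (F52G2.2) was called in sig-7(RNAi) only, and 0 genes in control only. Of 7 mutator and RNA cleavage genes, mut-15 (T01C3.8) and the helicase gene smut-1 (Y38A10A.6) were called in both. The nuclease-like gene nyn-2 (Y87G2A.7) was called in sig-7(RNAi) only, and mut-14 (C14C11.6), the helicase related to smut-1, in control only. The mutator and RNA cleavage genes of the list were thus divided over all 4 classes, with nyn-2 alone in the sig-7(RNAi)-only class and mut-14 alone in the control-only class. Of the members, mut-16 was called in both conditions and mut-7 in neither. Among 10 genes of nucleotidyltransferases and enzymes at RNA ends, the exonuclease genes xrn-1 (Y39G8C.1) and xrn-2 (Y48B6A.3) were also called in both, and disl-2 (F48E8.6) in sig-7(RNAi) only. The small RNA methyltransferase gene henn-1 (C02F5.6) was called in control only.

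The microRNA list had the highest share of calls among the 9 lists, with 7 of 9 genes (77.8%) in sig-7(RNAi) and 7 of 9 in control. It held drsh-1 (F26E4.10), which encodes Drosha, the nuclear enzyme upstream of Dicer, and ain-1 (C06G1.4), ain-2 (B0041.2) and dcs-1 (Y113G7A.9), all called in both. In this list tsn-1 (F10G7.2) was called in sig-7(RNAi) only and the helicase gene cgh-1 (C07H6.5) in control only. dcr-1, which serves this pathway too, thus had the call pattern of cgh-1 and not that of drsh-1. In the list of double-stranded RNA uptake and nuclear RNAi, nrde-1 (C14B1.6), nrde-2 (T01E8.5) and nrde-4 (F45E4.10), which act on nascent transcripts, were called in both. The kinase gene sid-3 (B0302.1) was called in sig-7(RNAi) only, and the transport gene sid-1 (C04F5.1) in neither. Of 11 piRNA biogenesis genes, erh-2 (F35G12.11), pid-2 (Y48G1C.1), snpc-4 (F32H2.1) and tofu-6 (EEED8.1) were called in both and tost-1 (C35D10.13) in sig-7(RNAi) only.

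Argonautes are the proteins that carry the small RNAs made by this machinery. Of 23 Argonaute genes, 5 (21.7%) were called in both conditions, 4 (17.4%) in sig-7(RNAi) only and 0 in control only. These classes held 16.8%, 7.05% and 6.03% of all protein-coding genes. The microRNA Argonautes alg-1 (F48F7.1) and alg-2 (T07D3.7) were called in both, as were alg-5 (T23D8.7) and nrde-3 (R04A9.2). The 4 called in sig-7(RNAi) only were ergo-1 (R09A1.1), prg-2 (C01G5.2), hrde-1 (C16C10.3) and wago-2 (F55A12.1). csr-1 (F20D12.1), whose small RNAs are made or modified by the products of ego-1, drh-3, ekl-1 and cde-1, was called in neither, and among those 4 genes ekl-1 alone had a call. rde-1 (K08H10.7), the Argonaute that receives the short interfering RNAs of Dicer and rde-4, was called in neither condition. Germ granule genes had 3 of 14 (21.4%) called in sig-7(RNAi) and 3 in control, near the 23.9% and 22.8% of all protein-coding genes. pgl-2 (B0523.3) and pid-5 (Y45G5AM.2) were called in both, the helicase gene glh-1 (T21G5.3) in sig-7(RNAi) only and its relative glh-3 (B0414.6) in control only.

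**Figure D3:**
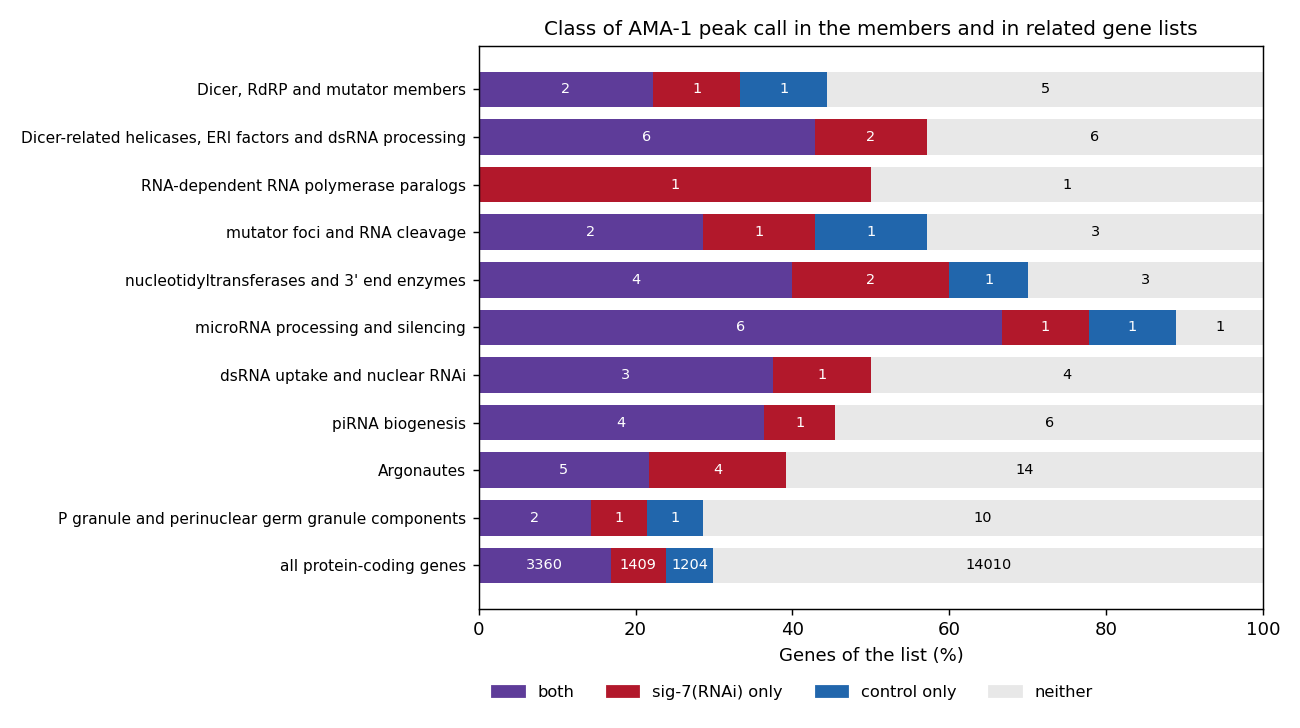
Classes of AMA-1 peak call in the 9 genes (top bar), in 9 lists of other small RNA genes and in all protein-coding genes (bottom bar), as percent of the matched genes of each list on the x axis, with gene counts inside the bars. The microRNA list has 6 of 9 genes called in both conditions, and the 9 genes have 2. Control-only calls are absent from 5 lists of 2 to 23 genes. They make up 6.03% of all protein-coding genes, and their absence from these lists was not tested.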

How the data were processed

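The deposited values are a call of 0 or 1 per gene and condition, a category and not a score, count or signal. Per the file headers, the authors called broad peaks with MACS2 (cutoff 0.01) and assigned them to genes by the overlap rule stated above. The submitters' processing notes name Bowtie 1.0.1 and the build ce10. Which MACS2 version and gene annotation were used, and whether inputs entered the peak calling, is not given in the sources used here.

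Sequence names were matched, ignoring case, to the RefSeq gene table of assembly WBcel235 (8824 of 8922 names). As the builds differ, that table gave only names, kinds and order of genes. Neighbours are the adjacent protein-coding genes in order of start, and a run is a stretch of them with the same pair of calls. The counting of neighbours was tested on simulated calls. Python 3.11.15, pandas 2.3.3 and matplotlib 3.10.9 were used. The members and lists were chosen with earlier results of these data known. Named in the text are the 9 members, their direct neighbours, all list genes called in a single condition and up to 4 called in both; further genes were named after their calls were seen. No test was run.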

Additional observations from a re-analysis of the deposited data

How the results depend on the processing

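Without the adjacent and uncalled paralogs ego-1 and rrf-1, the share of members called was 3 of 7 (42.9%) in sig-7(RNAi) and in control, in place of 33.3%. As both genes left out were uncalled, the share could only rise. No called members adjoin each other, so counting runs of them once could not change the counts. The background moved with its denominator. With every annotated gene counted, 13.9% were called in sig-7(RNAi) and 14.4% in control, and with protein-coding genes that have any call alone, 79.8% in sig-7(RNAi) and 76.4% in control. Beside the last of these backgrounds stand the 4 members that have any call, of which 3 were called in each condition. Without Argonautes and germ granule genes, 9 of 61 genes of the lists (14.8%) in place of 14 of 98 (14.3%) were called in sig-7(RNAi) only, and 3 (4.92%) in place of 4 (4.08%) in control only. rde-3, the name under which the gene table holds mut-2, was looked up after seeing the data and was called in neither condition. With any annotated gene as neighbour, 4 of the 9 genes in sig-7(RNAi) and 4 in place of 6 in control had a called neighbour. In that setting ekl-1 and cde-1 each had 1 called neighbour in sig-7(RNAi) in place of 2. In control dcr-1 and cde-1 each had 0 in place of 1. The place of cde-1 between 2 called neighbours thus holds for protein-coding neighbours only. Leaving out replicates, neighbours on the same strand, matching by synonyms, protein length, protein identity and promoter motifs were planned and not run, since replicates are merged in the calls and the gene table used here gives no strand, synonyms or sequence. No paired analysis was possible because each call combines its replicates. Depth is unknown, so an uncalled gene is not shown to lack RNA polymerase II.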

Other observations

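Within 10 protein-coding genes on either side of a member lay 160 different genes other than the members. Of these 68 (42.5%) were called in sig-7(RNAi) and 67 (41.9%) in control, with 49 in both conditions, 19 in sig-7(RNAi) only and 18 in control only. The share was 33.3% in each condition for the members themselves, and 23.9% in sig-7(RNAi) and 22.8% in control for all protein-coding genes. Around mut-7 0 of 20 genes were called in sig-7(RNAi) only and 3 in control only, and around mut-16 there were 4 of each. Control-only genes were also the more frequent around dcr-1, and the counts were equal around rrf-1. Around rde-4, ego-1, drh-3, ekl-1 and cde-1 sig-7(RNAi)-only genes were the more frequent. The 2 classes held 7.05% (sig-7(RNAi) only) and 6.03% (control only) of all protein-coding genes. The span of 10 genes was chosen after the calls had been seen, and no test was run on it.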
